A study of Cricetulus griseus with 8 samples.

Results

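The genes described here encode the aminoacyl tRNA synthetases of LR73, a phagocytic fibroblast line of the Chinese hamster, together with 2 scaffold proteins that hold some of these enzymes in a complex. They were chosen by symbol, as the 38 members of a fixed list that the deposited gene table holds, out of 26776 named genes in that table. The list has 20 cytosolic enzymes or enzyme subunits, 16 mitochondrial enzymes, whose symbols end in 2, and the scaffold proteins Aimp1 and Aimp2, and all 38 were found. RNA was sequenced from LR73 cells kept alone (4 libraries) and from LR73 cells co-cultured with apoptotic Jurkat cells, a human T cell line (4 libraries). The Jurkat cells had been exposed to UV-C light at 1500 mJ and then cultured for 4 h before they met the phagocytes. All cultures were of the same line, labelled fibroblast, and how the 4 cultures of a group were kept apart is not given in the labels, so p-values measure the spread between these libraries. The columns of the table carry a prefix, GFP, that the labels do not explain. The length of the co-culture is not given in the sources used here.

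An aminoacyl tRNA synthetase joins an amino acid to the tRNA that carries its code, the step that supplies the ribosome with charged tRNA. Cytosol and mitochondria translate separately, and most amino acids therefore have a cytosolic and a mitochondrial enzyme encoded by different nuclear genes. Gars and Kars are exceptions, since each gene supplies both compartments, and Eprs joins the glutamyl and prolyl enzymes of the cytosol in a fused protein. Many cytosolic synthetase genes are known targets of ATF4, a transcription factor of the amino acid response, and uncharged tRNA activates the kinase GCN2 upstream of it.

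Depth was 22.7 to 29.7 M reads (mega reads) per library, counted over named genes, and all 38 members passed the filter for testing, a mean of at least 10 normalized counts. Normalized counts are read counts divided by a size factor per library. They are not divided by transcript length, so values are compared between libraries for a gene and not between genes. Means are given ± SD and log2 fold changes, of co-cultures over phagocytes alone, ± SE, with n = 4 per group. In alone library 1 a member's value was the highest or the lowest of its group for 33 of 38 members (26 highest and 7 lowest), against 8 to 19 of 38 members for the other alone libraries. The fibroblast label was checked against 15 marker genes in the table. Of these, 10 had a mean of at least 100 normalized counts, Vim and Fn1 among them. Col1a1 and Col1a2 stood at 0.47 to 1.41 normalized counts and Thy1 had no reads. Of 9 epithelial markers in the table, 1 had a mean of at least 100 and 5 had no reads. It was Cdh1, with means of 242 alone and 206 with apoptotic cells. Of 9 myeloid markers in the table, 0 had a mean of at least 100. The 30 T cell markers in the table summed to 1764 to 1931 normalized counts per alone library and to 1661 to 1722 per co-culture library. These sums came mainly from Tcf7, Themis, Gata3 and Lat, whose group means were 177 to 677 normalized counts with or without apoptotic cells. Of the 7 T cell markers that were tested, Cd28 and Themis fell (adjusted p = 0.0385 and 0.0112 by limma) and the other 5 were not called. The 20 markers with at most 5 reads in all alone libraries together, a choice that favours a higher sum in the co-cultures, summed to 0 to 6.09 normalized counts per alone library and 14.3 to 23.5 per co-culture library. Among them, group means alone and with apoptotic cells were 0.68 and 6.29 for Lef1, 0 and 2.30 for Lck, and 0 and 1.29 for Zap70. Cd6 was lower with apoptotic cells (0.25 and 0). There were 6 markers without reads in any library, Cd3d and Cd3g among them. The part of Jurkat RNA in the results on synthetases was not tested.

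With apoptotic cells, 4 of the 20 cytosolic synthetase genes fell (Aars, Cars, Yars and Qars) and none rose. Of the 16 mitochondrial genes 1 rose (Sars2) and 1 fell (Cars2), and of the scaffold proteins Aimp2 rose. Calls were made with limma over all 13494 tested genes at a Benjamini-Hochberg adjusted p under 0.05, by which 6.36% of all tested genes were higher and 5.31% lower with apoptotic cells. The cytosolic share lower was 20% and the cytosolic share higher 0%, while the mitochondrial shares of 6.25% in each direction were near those of all genes. At an unadjusted p under 0.05 the cytosolic genes higher came to 2, and edgeR and DESeq2 called 0 of them higher. By edgeR 6.2% of all genes were higher and 5.37% lower and by DESeq2 6.58% and 5.34%, and both called the same 7 members as limma. The median log2 fold change was -0.02 for the cytosolic genes and 0.02 for the mitochondrial genes, beside 0.001 for all tested genes. The mitochondrial median turned negative without alone library 3 (-0.0014). In bulk RNA, fewer cells of a kind and less RNA per cell cannot be told apart.

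**Figure D1:**
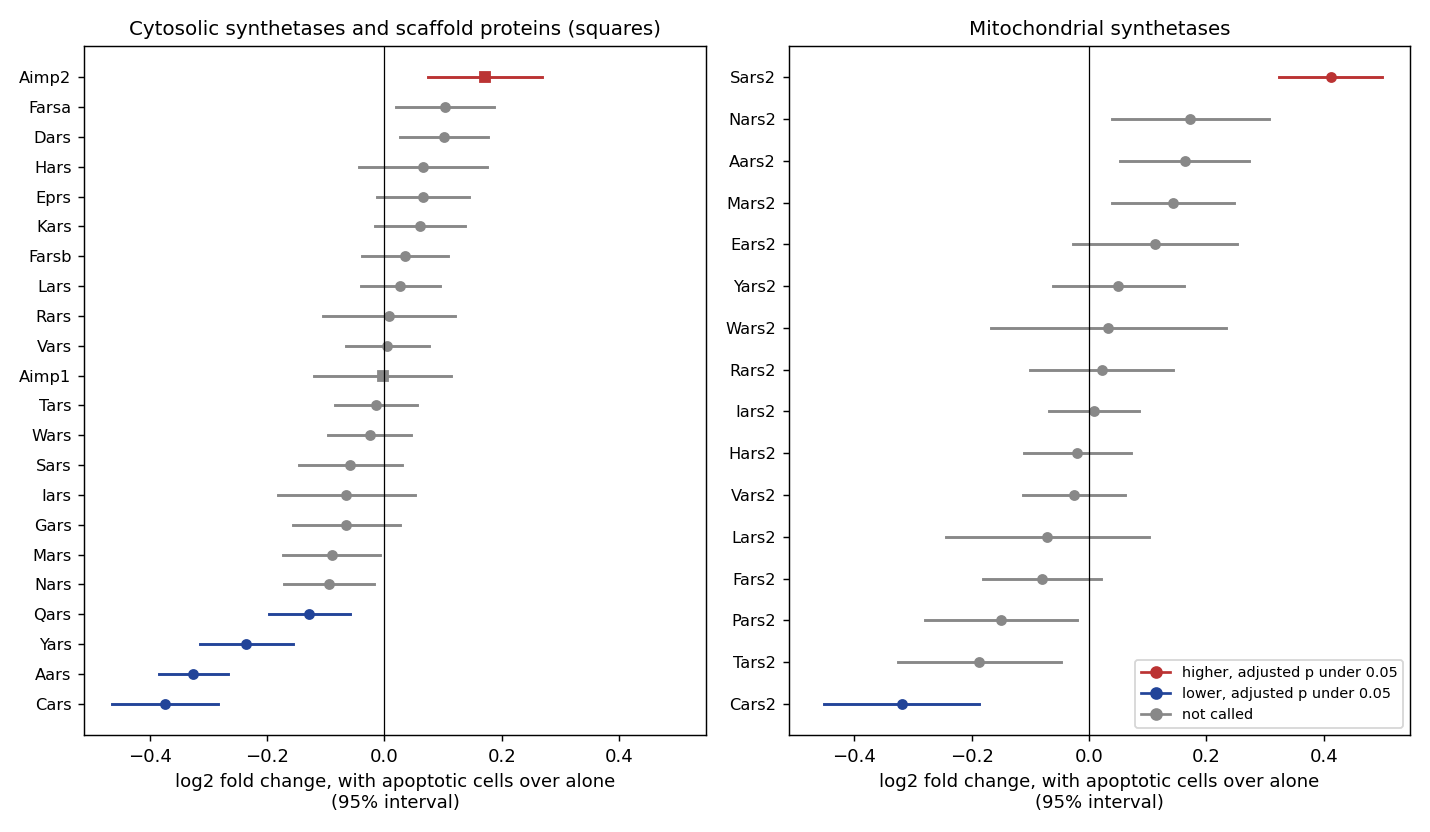
Log2 fold change (x axis, with apoptotic cells over alone, points) and its 95% interval (lines) from limma for each member, with cytosolic enzymes and the scaffold proteins on the left and mitochondrial enzymes on the right, and calls at an adjusted p under 0.05 in colour. The called members run from -0.37 for Cars to 0.41 for Sars2, and the intervals of the 31 members not called lie between -0.33 and 0.31.

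Aars, the alanyl-tRNA synthetase, gave the smallest adjusted p of the 38 members. It stood at 9641, 9644, 9702 and 9442 normalized counts in alone libraries 1 to 4 and at 7601, 7651, 7697 and 7714 in co-culture libraries 1 to 4. Every co-culture library was below every alone library, and the libraries of a group lay close together, with means of 9607 ± 113 and 7666 ± 50.8 (SD, n = 4 per group). Aars fell by 20.2%, a log2 fold change of -0.33 ± 0.03 (adjusted p = 6.04e-05 by limma).

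The other cytosolic genes that fell were those for cysteine, tyrosine and glutamine. Cars, the cysteinyl-tRNA synthetase, was at 2300, 2146, 2223 and 2069 normalized counts alone and at 1666, 1673, 1742 and 1660 with apoptotic cells, and fell by 22.8%, a log2 fold change of -0.37 ± 0.04 (adjusted p = 0.000344 by limma). Yars, the tyrosyl-tRNA synthetase, was at 4464, 4044, 4285 and 4242 alone and at 3663, 3636, 3557 and 3608 normalized counts with apoptotic cells, a log2 fold change of -0.24 ± 0.04 (adjusted p = 0.00255 by limma). In both genes the groups did not overlap. Qars, the glutaminyl-tRNA synthetase and a member of the multisynthetase complex, the assembly of cytosolic enzymes that the scaffold proteins hold together, was at 5601, 5384, 5459 and 5460 normalized counts alone and at 5078, 4828, 5016 and 5121 with apoptotic cells. Its groups did not overlap either, and its fall was the smallest of the 4, 8.5% or a log2 fold change of -0.13 ± 0.03 (adjusted p = 0.0246 by limma). The Qars call was lost without alone library 3 or 4 (adjusted p = 0.0719 and 0.0587) and without any 1 co-culture library (adjusted p = 0.0516 to 0.0857).

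**Figure D2:**
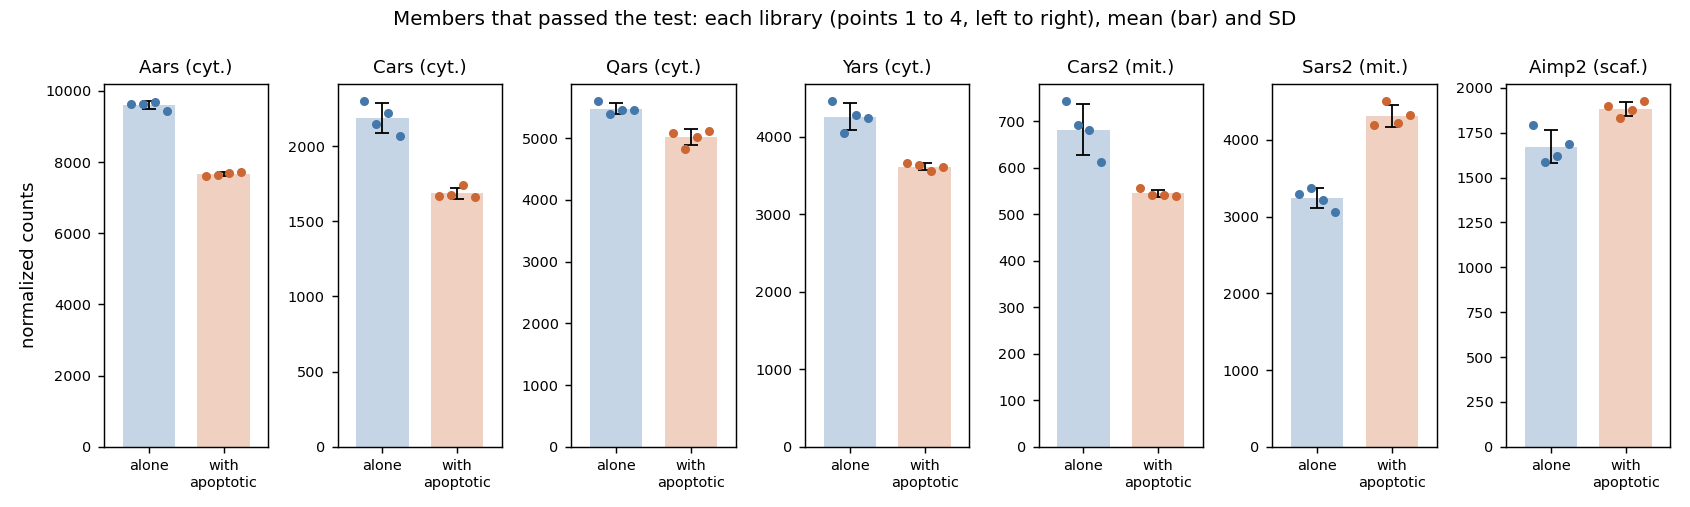
Normalized counts (y axis, from 0, a scale for each gene) of the 7 members that passed the limma test, with each library as a point in the order of its number, the group mean as a bar and the SD as a whisker. Aars, Cars, Qars, Yars and Cars2 are lower and Sars2 and Aimp2 higher in all 4 libraries with apoptotic cells than in any of the 4 alone.

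Among the 16 cytosolic genes that were not called, log2 fold changes ran from -0.09 to 0.10. Their 95% intervals together reached from -0.18 to 0.19. Dars, the aspartyl-tRNA synthetase of the same complex, was nearest the threshold. It was at 4855, 4565, 4724 and 4580 normalized counts alone and at 4916, 5000, 5204 and 4968 with apoptotic cells (a log2 fold change of 0.10 ± 0.03, adjusted p = 0.0804 by limma). Dars was the only cytosolic gene whose co-culture libraries all lay above the alone libraries, against 11.4% of all tested genes. Farsa, the alpha subunit of the phenylalanyl enzyme, was at 3267, 3011, 2984 and 2996 alone and at 3212, 3286, 3354 and 3313 normalized counts with apoptotic cells (a log2 fold change of 0.10 ± 0.04, adjusted p = 0.109 by limma). In Farsa the alone libraries 2, 3 and 4 lay below all co-cultures and alone library 1 among them. Farsb, its partner subunit, had a log2 fold change of 0.03 (95% interval -0.04 to 0.11).

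The lower side held 6 cytosolic genes whose groups did not overlap, where 9.72% of all tested genes were lower without overlap. They were the 4 called genes, Nars and Mars. Nars, the asparaginyl-tRNA synthetase, was at 2846, 2700, 2723 and 2704 alone and at 2506, 2573, 2662 and 2542 normalized counts with apoptotic cells (a log2 fold change of -0.09 ± 0.03, adjusted p = 0.112 by limma). Mars, the methionyl-tRNA synthetase, was at 2284, 2139, 2162 and 2143 alone and at 1979, 2038, 2116 and 2067 (a log2 fold change of -0.09 ± 0.04, adjusted p = 0.155 by limma). In both genes the highest co-culture value was below the lowest alone value by less than the spread of a group. Overlaps were sought in the RefSeq table of the CriGri-PICRH assembly, which may not be the build behind the counts. By chromosome label and whole gene span, 17 of the 38 members met another gene, Hars with Hars2 (444 bases) among them. Strand and exons were not considered, and whether the label separates unplaced pieces of the assembly was not checked. Some of the 17 may therefore not be true overlaps. Mars overlaps Ddit3 by 65 bases. That gene for the stress factor CHOP fell from 810 ± 51.1 to 613 ± 24.4 (normalized counts, with a log2 fold change of -0.40 ± 0.06, adjusted p = 0.00157 by limma), and whether shared reads bear on Mars was not tested.

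Among the enzymes held in the multisynthetase complex, Eprs, Kars and Lars had groups that overlapped. Eprs, the fused glutamyl and prolyl enzyme, was at 12253, 13261, 13005 and 13537 alone and at 13635, 13426, 13941 and 13450 normalized counts with apoptotic cells (a log2 fold change of 0.07 ± 0.04, adjusted p = 0.268 by limma). Kars, the lysyl enzyme, was at 14652, 13196, 13647 and 13983 alone and at 14362, 14348, 14636 and 14476 (a log2 fold change of 0.06 ± 0.03, adjusted p = 0.298 by limma). The alone libraries of both genes spread more widely than the co-cultures, and their range held 2 of the 4 co-cultures for Eprs and all 4 for Kars. Lars, the leucyl enzyme, was at 2897, 3019, 2958 and 2944 alone and at 2975, 2979, 3035 and 3058 normalized counts (a log2 fold change of 0.03 ± 0.03, 95% interval -0.04 to 0.09, adjusted p = 0.598 by limma). Over the 8 enzymes of the complex (Eprs, Iars, Lars, Mars, Qars, Rars, Kars and Dars), 1 fell (12.5%), Qars, beside 5.31% of all tested genes. Their median log2 fold change was 0.02, with 5 of 8 fold changes above 0. The 12 free-standing cytosolic genes had 3 falls (25%) and a median of -0.04. The shares rest on few genes, and the difference between these sets was not tested.

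Gars, Sars and Wars encode free-standing enzymes for glycine, serine and tryptophan. Gars was at 9795, 8662, 8870 and 9124 alone and at 8720, 8377, 8800 and 8918 normalized counts with apoptotic cells (a log2 fold change of -0.07 ± 0.04, adjusted p = 0.344 by limma). Sars was at 5505, 5024, 4875 and 5037 alone and at 5002, 4858, 4873 and 4880 (a log2 fold change of -0.06 ± 0.04, adjusted p = 0.378 by limma). In both, alone library 1 was the highest of the 8 and the other alone libraries were close to the co-cultures. Wars was at 3427, 3566, 3504 and 3661 alone and at 3482, 3511, 3475 and 3443 normalized counts (a log2 fold change of -0.02 ± 0.03, 95% interval -0.10 to 0.05, adjusted p = 0.649 by limma). The groups overlapped in all 3 genes. Hars, Iars, Rars, Tars and Vars, the other cytosolic genes, had log2 fold changes between -0.06 and 0.07 and overlapping groups.

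Sars2, the mitochondrial seryl-tRNA synthetase, rose more than any other member. Its normalized counts were 3298, 3380, 3221 and 3066 alone and 4195, 4509, 4217 and 4327 with apoptotic cells. No library of the groups came near the other group, and the means were 3241 ± 133 and 4312 ± 143 (SD, n = 4 per group). The rise was 33.1%, a log2 fold change of 0.41 ± 0.04 (adjusted p = 0.000169 by limma).

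Cars2, the mitochondrial cysteinyl enzyme, was the mitochondrial gene that fell. It was at 744, 691, 681 and 611 normalized counts alone and at 557, 541, 542 and 540 with apoptotic cells. The alone libraries spread over a wider range than the co-cultures, which lay together below it. Cars2 fell by 19.8%, a log2 fold change of -0.32 ± 0.06 (adjusted p = 0.00737 by limma).

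Of the 14 mitochondrial genes that were not called, log2 fold changes ran from -0.19 to 0.17, with SEs of up to 0.09. Aars2, the mitochondrial alanyl enzyme, was at 879, 812, 858 and 782 normalized counts alone and at 957, 958, 891 and 922 with apoptotic cells (a log2 fold change of 0.16 ± 0.05, adjusted p = 0.0587 by limma). Mars2, the mitochondrial methionyl enzyme, was at 947, 1040, 942 and 1001 alone and at 1057, 1058, 1084 and 1142 (a log2 fold change of 0.14 ± 0.05, adjusted p = 0.0775 by limma). In both genes all co-cultures lay above all alone libraries by less than the spread of a group. Nars2 was likewise higher without overlap (a log2 fold change of 0.17, 95% interval 0.04 to 0.31, adjusted p = 0.0957 by limma), and Tars2 was lower without overlap (a log2 fold change of -0.19, 95% interval -0.33 to -0.05, adjusted p = 0.0835 by limma). With Sars2 and Cars2, that made 4 mitochondrial genes higher and 2 lower without overlap, of 16, beside 11.4% and 9.72% of all tested genes. Wars2, the mitochondrial tryptophanyl enzyme, was at 206, 244, 211 and 256 alone and at 244, 243, 243 and 207 normalized counts (a log2 fold change of 0.03 ± 0.09, 95% interval -0.17 to 0.23, adjusted p = 0.842 by limma), the widest interval among the members, and the difference turned negative without alone library 1 or 3. Ears2, Fars2, Hars2, Iars2, Lars2, Pars2, Rars2, Vars2 and Yars2 had overlapping groups.

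Cytosolic and mitochondrial enzymes for the same amino acid were then set side by side within each library, as log2(cytosolic + 1) minus log2(mitochondrial + 1) in normalized counts. This gave 17 pairs, in which Eprs was paired with both Ears2 and Pars2, and Farsa and Farsb with Fars2. The pair ratio for alanine was 3.453, 3.568, 3.498 and 3.592 in the alone libraries and 2.988, 2.997, 3.109 and 3.064 in the co-cultures. It changed by -0.49 on the log2 scale, the largest change of the 17, with log2 fold changes of -0.33 for Aars and 0.16 for Aars2. The serine ratio, of Sars to Sars2, was 0.739, 0.572, 0.598 and 0.716 alone and 0.254, 0.107, 0.209 and 0.174 with apoptotic cells, a change of -0.47 that came mainly from Sars2. For cysteine the ratio changed little (1.68 ± 0.06 alone and 1.63 ± 0.04 with apoptotic cells, SD, n = 4 per group), since Cars and Cars2 fell by similar amounts.

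Besides alanine and serine, the ratio was lower without overlap for tyrosine (-0.29), asparagine (-0.27) and methionine (-0.23). It was higher without overlap for Farsa to Fars2 (0.18) and Farsb to Fars2 (0.11), which share the mitochondrial gene. The other 10 pairs overlapped between the groups, with changes from -0.07 to 0.22, the last for Eprs to Pars2. Among single genes, 21.2% of those tested had groups that did not overlap in either direction. No such share was computed for pair ratios, so 21.2% is not a background for them. The levels of these ratios depend on transcript length and are given for their change only. They were described and not tested, because the members were chosen with results of these data known.

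**Figure D3:**
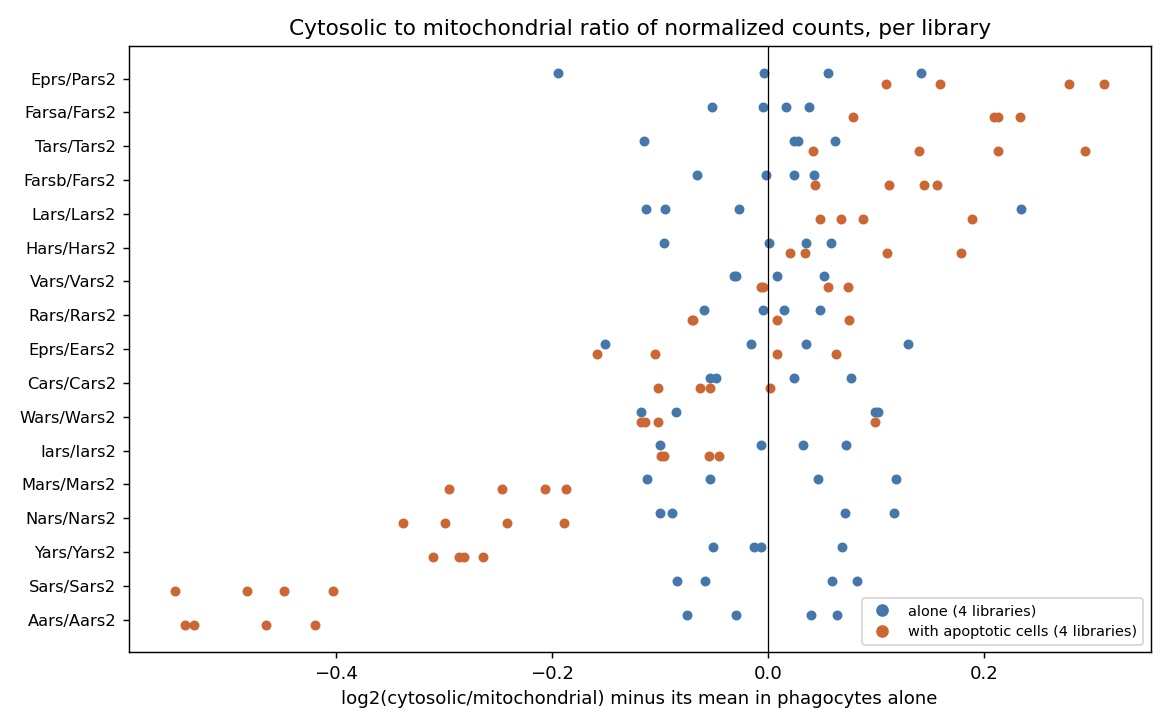
Log2 ratio of cytosolic to mitochondrial normalized counts for 17 enzyme pairs (rows), minus the mean of that pair in phagocytes alone (x axis), with each library as a point. The co-culture points of alanine, serine, tyrosine, asparagine and methionine lie to the left of all alone points, and those of Farsa and Farsb with Fars2 to the right.

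Of the scaffold proteins of the multisynthetase complex, Aimp2 passed the test and Aimp1 did not. Aimp2, also known as p38 or JTV1, was at 1796, 1590, 1620 and 1689 normalized counts alone and at 1898, 1831, 1878 and 1928 with apoptotic cells. The groups did not overlap, and Aimp2 rose by 12.7%, a log2 fold change of 0.17 ± 0.04 (adjusted p = 0.0303 by limma). The Aimp2 call was lost without alone library 2, 3 or 4 (adjusted p = 0.0688, 0.0966 and 0.0619) and without any 1 co-culture library (adjusted p = 0.0594 to 0.0924). Aimp1, the precursor of the cytokine EMAPII, was at 2470, 2063, 2278 and 2140 alone and at 2232, 2178, 2256 and 2245 (a log2 fold change of -0.003 ± 0.05, 95% interval -0.12 to 0.11, adjusted p = 0.977 by limma), a direction that turned on leaving out library 1 or 3 of the alone group or co-culture library 2. Its co-culture values all fell within the range of the alone libraries. Eef1e1, the remaining scaffold protein of the complex and not a listed member, was at 599, 525, 600 and 561 alone and at 571, 555, 566 and 602 normalized counts (a log2 fold change of 0.01 ± 0.06, adjusted p = 0.947 by limma), with a direction that turned when alone library 2 or 4, or co-culture library 4, was left out. The difference between the changes of Aimp2 and Aimp1 was not tested.

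The number of members called rested on library 1 of the phagocytes alone. Without it 16 of 38 members were called by limma, 42.1% of them, where 26% of all tested genes were called (13.4% higher and 12.5% lower). The 16 were the 7 genes above and 9 more. By limma without that library, Dars (0.12), Farsa (0.14), Hars (0.11), Kars (0.09), Aars2 (0.19), Mars2 (0.13) and Nars2 (0.17) were then higher, and Iars (-0.12) and Lars2 (-0.16) lower, on the log2 scale. In the cytosolic class that made 4 higher and 5 lower, and in the mitochondrial class 4 higher and 2 lower. In alone library 1 the median deviation from the mean of the 8 libraries was 0.07 over the cytosolic genes and 0.03 over the mitochondrial genes. In the other 7 libraries it ran from -0.03 to 0.02 for the cytosolic and from -0.03 to 0.03 for the mitochondrial genes. Leaving out any other library kept 5 or 6 of the 7 calls and added none. Aars, Cars, Yars, Sars2 and Cars2 were called in every one of these fits.

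**Figure D4:**
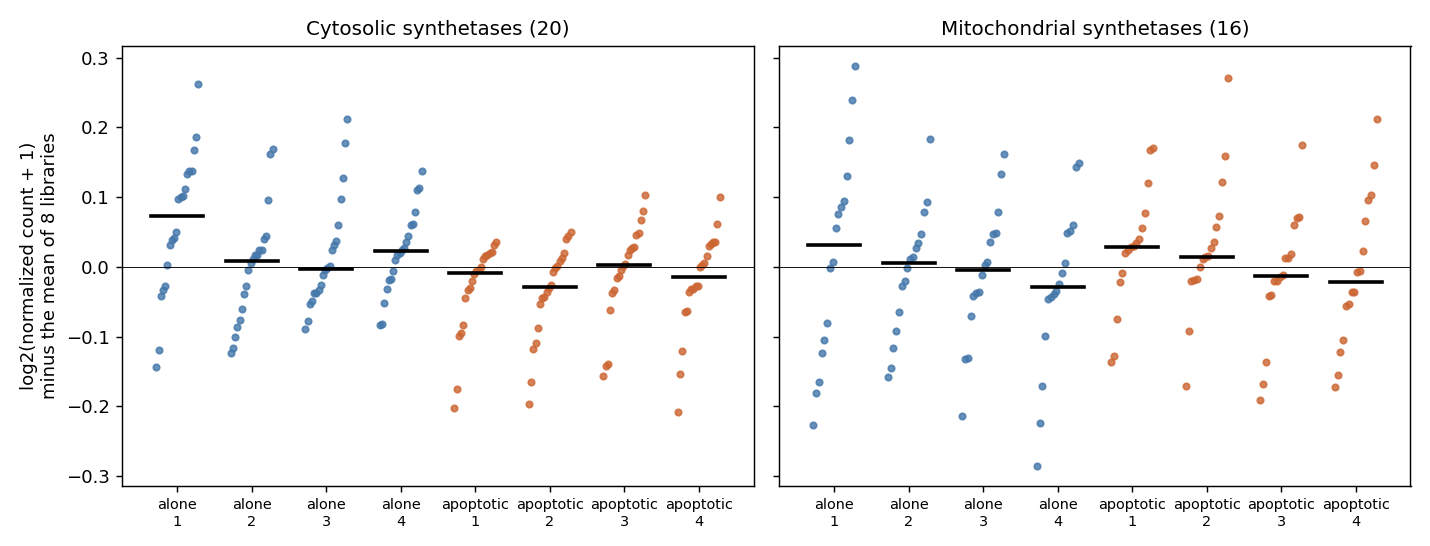
Deviation of log2(normalized count + 1) from the mean of the 8 libraries (y axis) for each cytosolic (left) and mitochondrial (right) synthetase gene as a point, in each library (x axis), with the class median as a black line. The cytosolic median stands at 0.07 in alone library 1 and between -0.03 and 0.02 in the other 7 libraries, and points of alone library 1 spread widely on both panels.

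Other genes that make, charge or use tRNA, and genes of the amino acid response, were counted in lists chosen with earlier results of these data known. The 7 lists held 177 tested genes, of which 20 or 11.3% were called, near the 11.7% of all tested genes. The amino acid response, with 19 tested genes, supplied 9 of these 20 calls (47.4% of its genes). In the other lists 0 to 16.7% were called. Over all 7 lists the calls came to 48 or 27.1% without alone library 1, near the 26% of all genes in that fit. They came to 13 without alone library 3, and to 12, 12 and 11 when co-culture library 1, 2 or 3 was left out. None of 11 tested partners of tRNA charging, such as the export receptor Xpot and the mitochondrial amidotransferase subunits Gatc and Qrsl1, was called by limma, edgeR or DESeq2, while 1 was higher at an unadjusted p under 0.05. Their median log2 fold change was 0.01.

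RNA polymerase III, which transcribes tRNA genes, had 2 of 21 tested genes higher (9.52%) and 1 lower (4.76%), beside 6.36% and 5.31% of all tested genes. Its subunit gene Polr3e rose from 2005 ± 26.7 to 2204 ± 28.6 (normalized counts, with a log2 fold change of 0.14, adjusted p = 0.0192 by limma), and Maf1, a repressor of the polymerase, fell from 3899 ± 157 to 3521 ± 48.7 (a log2 fold change of -0.15, adjusted p = 0.0249 by limma). Leaving out alone library 3 or any of the co-culture libraries 1 to 3 ended both calls, and leaving out co-culture library 4 ended that of Maf1 (adjusted p up to 0.0674 for Polr3e and up to 0.0837 for Maf1). Of 36 genes of tRNA processing and modification, 2 rose (5.56%) and 1 fell (2.78%), shares no higher than those of all tested genes. Pop1, a subunit of the RNase P that trims tRNA precursors, rose by 0.21, and Pus7, a pseudouridine synthase, by 0.16 on the log2 scale (adjusted p = 0.00515 and 0.0106 by limma).

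Translation factors and mitochondrial ribosomal proteins were counted in the same way, beside 6.36% of all tested genes higher and 5.31% lower. Of 6 genes of cytosolic elongation 1 fell (16.7%). It was Eef2k, the kinase that inhibits elongation factor 2 (a log2 fold change of -0.15, adjusted p = 0.0404 by limma). The Eef2k call was lost without any 1 library other than alone library 1 (limma adjusted p up to 0.123). Of 9 mitochondrial translation factors 1 rose (11.1%), the release factor gene Mtrf1l (a log2 fold change of 0.29, adjusted p = 0.0111 by limma). Of 75 mitochondrial ribosomal protein genes limma called 3 higher (4%) and 0 lower, with a median log2 fold change of -0.01. At an unadjusted p under 0.05 these were 7 and 6, and edgeR and DESeq2 called 0 lower. Mrps2 rose from 877 ± 19.5 to 1119 ± 34.7 (normalized counts, with a log2 fold change of 0.35, adjusted p = 0.000482 by limma), and Mrpl17 by 0.31 on the log2 scale (adjusted p = 0.0219 by limma), a call lost without any 1 library other than alone library 1 (adjusted p up to 0.0705).

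In the amino acid response, 9 of 19 tested genes fell, beside 5.31% of all tested genes, with a median log2 fold change of -0.14. Limma called 0 of them higher, as did edgeR and DESeq2, and 0 were higher at an unadjusted p under 0.05. Trib3, a pseudokinase induced by ATF4 and CHOP, fell from 844 ± 35.5 to 409 ± 35.8 (normalized counts, with a log2 fold change of -1.04, adjusted p = 1.12e-05 by limma), and Nupr1, a stress-induced chromatin protein, from 1609 ± 105 to 985 ± 37.0 (a log2 fold change of -0.71, adjusted p = 3.21e-05 by limma). Atf4 itself, named after its values were seen, fell from 6972 ± 613 to 4669 ± 57.0 (normalized counts, with a log2 fold change of -0.57 ± 0.05, adjusted p = 0.000135 by limma). In alone library 1 the median deviation of this list from the mean of the 8 libraries was 0.19, against 0.03 to 0.08 in the other alone libraries and -0.10 to -0.05 in the co-cultures. The 12 cytosolic synthetase genes set apart as often listed ATF4 targets were chosen with earlier results of these data known. That choice can shape such a split. Of the 12, 3 fell (25%, Aars, Cars and Yars), with a median of -0.06 and 10 of 12 fold changes below 0. Of the other 8 cytosolic genes 1 fell (12.5%), Qars, with a median of 0.05 and 7 of 8 above 0. The difference between these sets and any part of ATF4 in it were not tested.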

How the data were processed

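Members, gene lists, tests and the rule for named genes were chosen with earlier results of these data known. The signal that the authors deposited for each library is a gene's read count over that library's size factor, as its values show: 100% of them were whole multiples of 1 read within 0.01 reads, and the reads were recovered from these steps. Per the file headers, the deposited table also holds p-values, a score for the test, the log2 fold change with its error, and a mean signal. The authors' deposited table called the same 7 members in the same directions. FastQC, STAR, featureCounts and DESeq2 are named in the submitters' processing notes, without versions. What build, annotation and strand setting were used, and how human reads were handled, is not given in the sources used here. Any read from Jurkat RNA could therefore be counted under a hamster gene, and reads where genes overlap could be lost or misassigned. Columns were matched to labels by replicate number and the letters AC. A row without a name, 0.14 to 0.176% of reads, was left out.

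Limma 3.58.1 (trend, R 4.3.3) was fitted to log2(normalized count + 1) of all 13494 genes with a mean of at least 10, with group as the only term, and p-values were adjusted over all of them. Fold changes on this scale are slightly understated for low values. Errors and intervals are limma's moderated ones. Alternatives were a pseudocount of 0.5, other filters, TMM scaling, edgeR 4.0.16 (quasi-likelihood) and DESeq2 1.42.0 on recovered reads, a replicate block, array weights, and leaving out each library. Full values are given for members that were called, for the largest rise and fall and the 2 nearest misses of each class, and for a fixed set (Aars, Eprs, Gars, Kars, Lars, Mars, Sars, Wars, Aars2, Mars2, Sars2, Wars2, Aimp1, Aimp2 and Eef1e1, with 1 gene of the rule not reported here). Of each pathway list, the 2 called genes with the smallest adjusted p are named. Nars, Nars2, Tars2, Atf4 and Ddit3 were added after their values were seen. Symbols of all 38 members matched the RefSeq table of the CriGri-PICRH-1.0 assembly, 18 of them with a final 1. No genome or sequence was used here, so no positions or sequences are given. Figures were drawn with matplotlib 3.10.9.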

Additional observations from a re-analysis of the deposited data

Results flagged for a closer look

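In 11 of 78 sets of 4 libraries (38 members and Eef1e1, in each group), a library stood so far from the other 3 that its gap was above Dixon's 95% critical value, where chance gives about 1 in 20. Alone library 1 accounted for 7 of them. It was above the other alone libraries for Farsa (3267 against 2984 to 3011 normalized counts), Mars (2284 against 2139 to 2162), Nars (2846 against 2700 to 2723), Rars2 (765 against 666 to 681) and Tars2 (711 against 617 to 625). It was below them for Iars (4219 against 4925 to 4988) and Lars2 (605 against 755 to 782). Among the co-cultures, library 1 was above the others for Sars (5002 against 4858 to 4880) and Cars2 (557 against 540 to 542), library 3 was above for Cars (1742 against 1660 to 1673), and library 4 was below for Wars2 (207 against 243 to 244).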

How the results depend on the processing

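Over 16 alternatives, 555 of 608 values of the 38 members kept their direction and their side of the threshold. Aars, Cars, Yars, Sars2 and Cars2 were called in all 16. The pseudocount, both filters, TMM scaling, edgeR and DESeq2 each gave the same 7 member calls. With array weights 1804 genes were higher and 1674 lower, and 18 members were called, with 4 cytosolic higher, 4 mitochondrial higher and 3 mitochondrial lower, and 48 genes of the pathway lists, against 20. With the replicate block 498 genes were higher and 400 lower, 13 genes of the pathway lists were called, and scaffold calls fell to 0. The block also ended the Qars call (adjusted p = 0.0648 with the block by limma) and left 5 members called. No pairing by replicate number was seen, with correlations of deviations from -0.262 to 0.181 over the 4 numbers. Of the 4 alone libraries, 1 correlated best with its own number. With 4 libraries per group, this check could not exclude a pairing. Over left-out libraries, genes higher ran from 416 to 1811 and lower from 356 to 1694, members called from 5 to 16, cytosolic higher from 0 to 4, mitochondrial higher from 1 to 4 and lower from 1 to 2, scaffold calls from 0 to 1, and calls in the pathway lists from 11 to 48. Changes near 0 turned in direction. Vars stood at -0.0014 under TMM scaling. Hars2 (0.012), Iars2 (-0.0095) and Aimp1 (0.026) turned with array weights. Over left-out libraries Rars ran from -0.0296 to 0.053, Vars from -0.012 to 0.017, Hars2 from -0.036 to 0.0051, Iars2 from -0.017 to 0.026, Wars2 from -0.016 to 0.091, Aimp1 from -0.041 to 0.046 and Eef1e1 from -0.032 to 0.031. The cause of these shifts was not tested. With SEs of 0.03 to 0.09 for the members, changes of a few percent were not detectable. The size needed for a call differed by gene. Qars was called at -8.5%, while Nars2 (12.7%) and Tars2 (-12.2%) were not called.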
